A study of Mus musculus with 12 samples.

Results

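The phagocyte NADPH oxidase was followed through 6 genes, Cybb, Cyba, Ncf1, Ncf4, Rac2 and Hvcn1, which were chosen by name from the 55487 genes of the count table. All 6 were found once each, and all 6 passed the filter on low counts. They were measured by RNA-sequencing of CD11b-positive cells, which anti-CD11b beads had pulled from dissociated cerebral cortex, in 12 male mice with 3 in each of 4 groups. WT mice and App NL-G-F mice, which carry familial AD mutations in a knock-in App gene and are called knock-in mice here, were given 24 i.v. injections of either PBS (veh) or 10 mg/kg rh Bri2 BRICHOS R221E over 12 weeks from the age of 9 months, and brains were taken 4 weeks later. rh Bri2 BRICHOS R221E is a recombinant, mutated chaperone domain taken from the protein Bri2, and the mice that received it are called BRICHOS-treated here. The knock-in alleles were present throughout life and in all cells, so the strain groups compare mice with long-standing amyloid pathology with mice without it. CD11b is also carried by macrophages, monocytes and neutrophils, and the beads select all such cells.

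The phagocyte NADPH oxidase, also called NOX2, moves electrons from NADPH across a membrane to oxygen and so makes superoxide, which phagocytes release into phagosomes or to the outside. Its core is a membrane pair of the catalytic subunit gp91phox and its partner p22phox, which stays idle until cytosolic subunits and a Rac GTPase join it. Microglia are the resident phagocytes of the brain, and they carry this enzyme as other phagocytes do. Transcript levels were measured here, and neither enzyme assembly nor superoxide was.

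The genes fall into 3 roles. In the membrane, Cybb encodes gp91phox and Cyba encodes p22phox. In the cytosol, Ncf1 encodes p47phox, the organizer that links the cytosolic complex to p22phox after phosphorylation, Ncf4 encodes p40phox, which binds a phosphoinositide of the phagosome membrane, and Rac2 encodes the Rac GTPase typical of blood cells. Hvcn1 encodes the voltage-gated proton channel, which lets protons follow the electrons and keeps the oxidase running. In the GRCm38 genome, Cybb lies on chromosome X (9435252 to 9487771, minus strand), Cyba on chromosome 8 (122424776 to 122432930, minus strand) and Ncf1 on chromosome 5 (134220053 to 134229625, minus strand). Hvcn1 is also on chromosome 5 (122206804 to 122242297, plus strand), while Ncf4 (78244801 to 78262580, plus strand) and Rac2 (78559167 to 78572783, minus strand) lie 297 kb apart on chromosome 15. The counts cover the exons of each gene.

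RefSeq's promoter table for GRCm38.p6 held 3 of the 6 genes. The 250 bases before their start sites, all on the minus strand, are shown because the 2 membrane subunits rose in knock-in mice while Ncf1 was not called. They are chrX:9469325-9469574 for Cybb, which falls inside the span of the gene as GENCODE lists it, chr8:122432941-122433190 for Cyba and chr5:134229626-134229875 for Ncf1. Capitals mark the matches to 3 motifs that were searched on both strands.
Cybb: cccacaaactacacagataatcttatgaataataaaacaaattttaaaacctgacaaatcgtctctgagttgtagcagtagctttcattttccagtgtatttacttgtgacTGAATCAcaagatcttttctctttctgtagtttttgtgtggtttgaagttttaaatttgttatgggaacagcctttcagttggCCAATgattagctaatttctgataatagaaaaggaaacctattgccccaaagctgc
Cyba: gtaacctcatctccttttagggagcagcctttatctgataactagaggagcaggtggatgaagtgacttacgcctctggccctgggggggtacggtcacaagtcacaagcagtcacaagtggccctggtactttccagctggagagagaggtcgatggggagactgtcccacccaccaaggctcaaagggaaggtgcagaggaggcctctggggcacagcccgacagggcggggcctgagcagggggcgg
Ncf1: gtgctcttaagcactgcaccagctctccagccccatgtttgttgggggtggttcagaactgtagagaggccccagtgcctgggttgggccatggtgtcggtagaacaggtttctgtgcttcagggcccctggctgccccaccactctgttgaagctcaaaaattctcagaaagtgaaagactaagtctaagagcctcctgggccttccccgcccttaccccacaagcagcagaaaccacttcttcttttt
The motifs were GAGGAA for the myeloid factor PU.1, TGANTCA for AP-1 and CCAAT for the CCAAT box, and no letters of the matches overlap. Among 32851 promoter windows of the same length, 23.3%, 6.75% and 33.8% held them. The Cybb window held TGAATCA, starting 139 bases before the start site, and CCAAT, starting 56 bases before it. The Cyba and Ncf1 windows held none of the 3. The Cybb window was also the poorest in G and C, at 34.0% against 54.4% for Ncf1 and 60.0% for Cyba. A match is a description of letters and was not tested as a binding site. Only these exact letters were searched, with N for any base. A site of PU.1 or another factor with other letters would not be marked, so a window without a match may still hold one.

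Levels are given in CPM, counts scaled to a common library size, with TMM factors that correct the total counts of 12433402 to 17889654 per library for differences in composition. A level of 3 counts, taken as the detection floor, is 0.169 to 0.227 CPM, and the lowest count of any of the 6 genes in any library was 720. Differences are log2 fold changes of edgeR's quasi-likelihood fit to all 12 libraries, with p-values adjusted by the Benjamini-Hochberg method over 15425 genes, and a gene was called when its adjusted p was under 0.05. Replicates are different mice, whose libraries differed by more than sampling noise. Beside the microglial markers, whose sum was 22300 to 28000 CPM in every library, markers of other cells were present. The sums of 6 border macrophage markers were 389 to 630 CPM in WT and 165 to 224 CPM in knock-in mice, those of 8 neutrophil markers 34.2 to 429 and 12.0 to 35.4 CPM, and those of 5 monocyte markers 18.1 to 86.6 and 10.1 to 25.0 CPM. The sum of 6 astrocyte markers was 919 to 2590 CPM in veh-treated knock-in mice and 311 to 390 CPM in veh-treated WT mice.

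**Figure D1:**
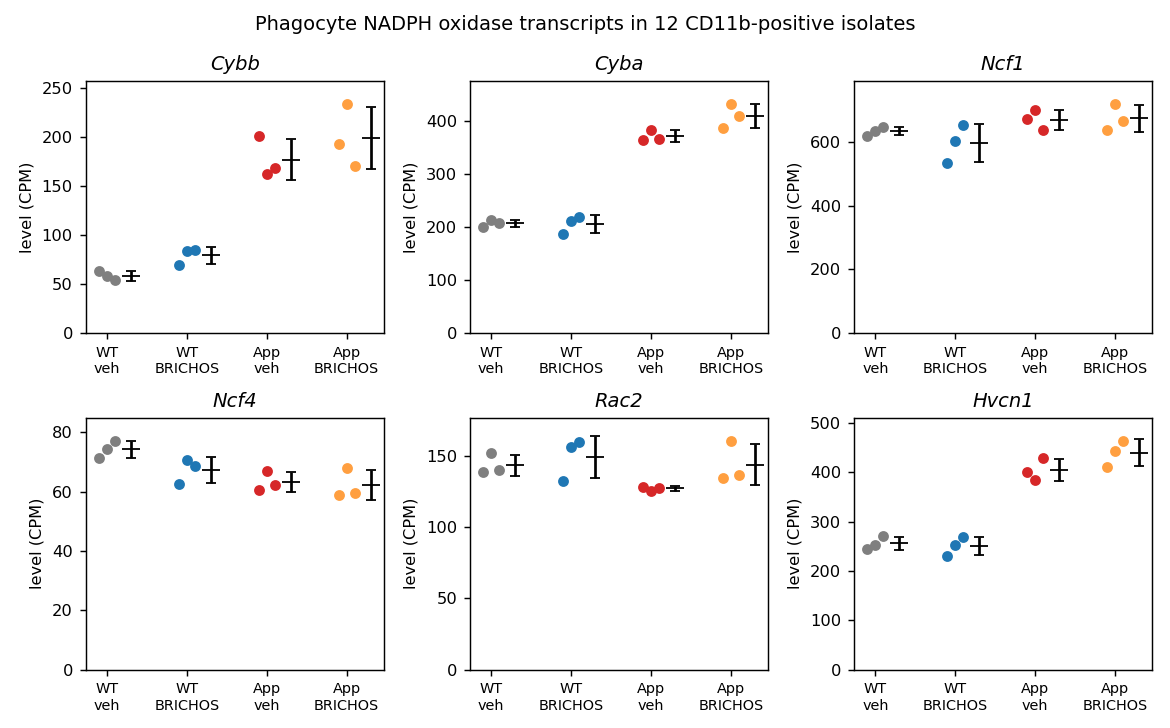
Level of each oxidase gene (CPM, linear axes from 0) in the 12 CD11b-positive isolates, with 1 point per mouse and the mean ± SD of 3 mice beside each group; App stands for the knock-in mice. Cybb, Cyba and Hvcn1 were higher in every knock-in mouse than in any WT mouse, whereas the groups lay close together for Ncf1, Ncf4 and Rac2.

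The first question was how the oxidase genes differ between veh-treated knock-in and veh-treated WT mice. The membrane pair and the proton channel rose, with Cybb 3.04-fold, Cyba 1.80-fold and Hvcn1 1.58-fold higher in knock-in mice. Of the cytosolic genes, Ncf4 fell slightly to 0.851-fold, while Ncf1 and Rac2 were not called. In all, 4 of the 6 genes were called, 3 higher and 1 lower, where 37.0% of all tested genes were called, 20.1% higher and 16.9% lower. The median log2 fold change of the 6 genes was 0.37, against -0.02 for all genes. In bulk samples such as these, more transcript per cell and more cells that carry it cannot be told apart.

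Cybb had 63.1, 57.9 and 53.7 CPM in the 3 veh-treated WT mice and 201, 162 and 168 CPM in the 3 veh-treated knock-in mice. The lowest knock-in mouse was thus far above the highest WT mouse. The log2 fold change was 1.60 (SE 0.127, 95% interval 1.33 to 1.88, edgeR adjusted p = 2.06e-06), larger than that of 95.8% of all genes. It was between 1.51 and 1.66 when any 1 library was left out. Of the markers of other cells that carry the oxidase, 6 of 8 neutrophil, 2 of 5 monocyte and 6 of 6 border macrophage markers were called lower and 0 higher in the same comparison, while 6 of 6 astrocyte markers were called higher, and of 7 microglial markers 6 were called lower and 1 higher. The sum of 5 oligodendrocyte markers was 9340 to 16500 CPM in veh-treated WT and 2910 to 5290 CPM in veh-treated knock-in mice, and that of 5 neuronal markers 11.4 to 17.5 and 4.15 to 4.86 CPM. Their part in the change was not tested.

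Cyba, the partner that stabilizes gp91phox, had 200, 213 and 208 CPM in veh-treated WT mice. In veh-treated knock-in mice it had 365, 384 and 367 CPM, and neither group spread widely. Cyba rose by 0.85 on the log2 scale (SE 0.0638, interval 0.71 to 0.99, edgeR adjusted p = 1.45e-06). Since Cybb rose more than Cyba, the ratio of Cyba to Cybb per kb of exons was 20.0 ± 2.05 in veh-treated WT and 11.9 ± 1.57 in veh-treated knock-in mice (SD, n = 3). In BRICHOS-treated mice this ratio was 14.6 ± 0.488 in WT and 11.7 ± 1.59 in knock-in mice, a smaller strain difference. The 2 WT groups did not overlap, with 17.7 to 21.7 under veh and 14.2 to 15.1 under BRICHOS.

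Hvcn1 had 245, 252 and 271 CPM in veh-treated WT mice and 400, 386 and 430 CPM in veh-treated knock-in mice. The proton channel therefore moved with the membrane pair and its groups did not overlap. Hvcn1 rose by 0.66 on the log2 scale (SE 0.0707, interval 0.51 to 0.82, edgeR adjusted p = 2.35e-05). Its exons share 1574 bases with Tctn1, a gene on the opposite strand that had 15.5 to 24.5 CPM. Tctn1 itself differed by 0.31 (edgeR adjusted p = 0.0342), and a setting for strand in the counting is not given in the sources used here, so that a small share of the Hvcn1 counts could belong to Tctn1.

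Ncf1 had the highest count of the 6 genes, with 619, 635 and 647 CPM in veh-treated WT mice and 671, 699 and 636 CPM in veh-treated knock-in mice. Mouse 3 of the latter lay within the WT range. The log2 fold change was 0.08 (SE 0.0748, interval -0.09 to 0.24, edgeR adjusted p = 0.448), so a rise of the size seen for the membrane pair is outside the interval. Its direction turned with total counts alone as the scaling, at -0.11. Ncf1 shares 408 exon bases with Gtf2ird2 on the opposite strand, which had 22.3 to 29.0 CPM.

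Ncf4 had 71.4, 74.3 and 77.1 CPM in veh-treated WT mice and 60.6, 67.0 and 62.1 CPM in veh-treated knock-in mice. Every knock-in mouse was below every WT mouse, but the gap between the groups was narrow. The log2 fold change was -0.23 (SE 0.0714, interval -0.39 to -0.08, edgeR adjusted p = 0.0243). This call was lost without veh-treated WT mouse 2 or 3 and without veh-treated knock-in mouse 1 or 3, with edgeR adjusted p-values of 0.0609, 0.0816, 0.117 and 0.0640, while the fold change stayed between -0.28 and -0.20 without any 1 library.

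Rac2 had 139, 152 and 139.8 CPM in veh-treated WT mice and 129, 126 and 127 CPM in veh-treated knock-in mice. These groups did not overlap either, as was the case for 50.9% of all tested genes. Rac2 differed by -0.18 on the log2 scale (SE 0.0826, interval -0.36 to 0.01, edgeR adjusted p = 0.117), which passed the threshold only in a fit of the compared groups alone (adjusted p = 0.0218) and with total counts as the scaling (-0.37, adjusted p = 0.00132). Total counts alone moved the median of all genes to -0.21, and relative to that median Rac2 differed by -0.15, Ncf4 by -0.21 and Cybb by 1.63. The close relative Rac1, which can take the place of Rac2 in the oxidase, had 460 to 591 CPM over all libraries and differed by 0.10 in the same comparison (edgeR adjusted p = 0.239), or by -0.09 with total counts alone. Between the BRICHOS-treated strains Rac1 was called higher, by 0.21 (edgeR adjusted p = 0.0253), which turned to -0.06 with total counts alone and missed the threshold without BRICHOS-treated WT mouse 1 or knock-in mouse 3 (0.17 in both, adjusted p = 0.0867 and 0.0855). Rac1 shares 2309 exon bases with genes on the opposite strand.

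The same strain comparison was made in BRICHOS-treated mice, which are other animals. There 3 of the 6 genes were called, all of them higher, where 42.5% of all genes were called and 20.8% were higher. The called genes were again Cybb, Cyba and Hvcn1. Cybb had 69.5, 83.2 and 85.1 CPM in BRICHOS-treated WT mice and 193, 234 and 171 CPM in BRICHOS-treated knock-in mice. These groups were separated by a wide gap, although the knock-in mice varied more than the WT mice, and the log2 fold change was 1.33 (SE 0.125, interval 1.05 to 1.60, edgeR adjusted p = 7.61e-06).

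Cyba had 188, 211 and 219 CPM in BRICHOS-treated WT mice and 387, 433 and 410.1 CPM in BRICHOS-treated knock-in mice, a log2 fold change of 0.99 (SE 0.0639, edgeR adjusted p = 3.63e-07). Hvcn1 had 232, 252 and 269 CPM in the former and 411, 445 and 465 CPM in the latter, a log2 fold change of 0.81 (SE 0.0707, edgeR adjusted p = 4.14e-06). For both genes each knock-in mouse exceeded each WT mouse by a wide margin.

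The cytosolic genes overlapped between the strains under treatment. Ncf1 had 534, 602 and 654 CPM in BRICHOS-treated WT mice and 636, 719 and 666 CPM in BRICHOS-treated knock-in mice, with a log2 fold change of 0.18 (interval 0.01 to 0.34, edgeR adjusted p = 0.0795). This missed the threshold, which it passed without BRICHOS-treated WT mouse 3 (0.25, adjusted p = 0.0251) and in DESeq2's Wald test (0.20, adjusted p = 0.0416), and it turned to -0.10 with total counts alone. Ncf4 had 62.4, 70.7 and 68.5 CPM in the WT and 58.9, 68.0 and 59.5 CPM in the knock-in mice, with a log2 fold change of -0.11 (interval -0.27 to 0.04, edgeR adjusted p = 0.226). Rac2 had 132, 156 and 159.8 CPM in the WT and 134, 161 and 137 CPM in the knock-in mice, with a log2 fold change of -0.05 (interval -0.23 to 0.13, edgeR adjusted p = 0.628). For both, the mice of the strains lay among each other. With total counts alone, which moved the median of all genes to -0.31, Ncf4 (-0.39) and Rac2 (-0.33) were called lower, and relative to that median they differed by -0.07 and -0.01.

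**Figure D2:**
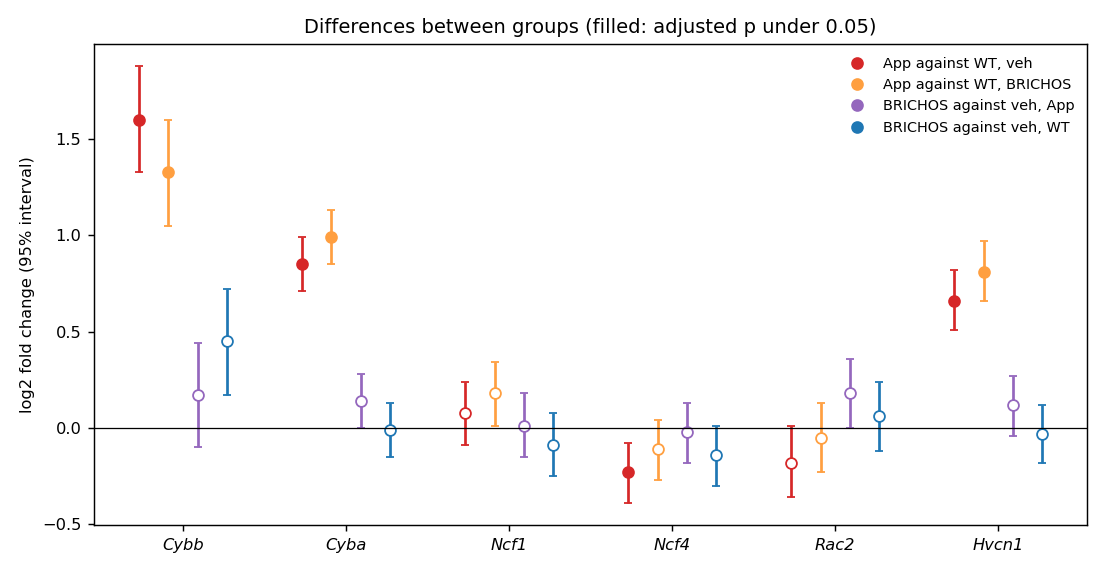
Log2 fold change of each oxidase gene with its 95% interval, for the strain comparison under veh and under BRICHOS and for BRICHOS against veh in each strain (3 mice per group, edgeR fit of 12 libraries); filled points have an adjusted p under 0.05. The filled points are those of Cybb, Cyba and Hvcn1 in both strain comparisons, between 0.66 and 1.60, and that of Ncf4 at -0.23 in veh-treated mice.

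The second question was whether BRICHOS treatment changed the oxidase genes. In knock-in mice 0 of the 6 genes were called by edgeR, where 0.00648% of all genes, a single one, were called. DESeq2's Wald test, which called 125 of all genes, called 0 of the 6 as well. At an unadjusted p under 0.05, which 10.8% of all genes met, 1 of the 6 passed. This was Cyba, whose 387, 433 and 410.1 CPM in BRICHOS-treated mice were all above the 365, 384 and 367 CPM of veh-treated mice, by a log2 fold change of 0.14 (SE 0.0632, edgeR adjusted p = 0.451). The gap between the closest mice was small.

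Rac2 likewise did not overlap, with 134, 161 and 137 CPM after BRICHOS and 129, 126 and 127 CPM after veh, and differed by 0.18 (SE 0.0826, interval 0.00 to 0.36, edgeR adjusted p = 0.468). That made 2 of 6 genes without overlap, where 13.5% of all genes had none. The mice overlapped for the other genes. Cybb differed by 0.17 (interval -0.10 to 0.44), Hvcn1 by 0.12 (interval -0.04 to 0.27), Ncf1 by 0.01 (interval -0.15 to 0.18) and Ncf4 by -0.02 (interval -0.18 to 0.13). A return of Cybb, Cyba or Hvcn1 to the level of WT mice, a fall by their strain difference, is outside these intervals.

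In WT mice 0 of the 6 genes were called by edgeR, as were 0.00% of all genes, and 1 of the 6 had an unadjusted p under 0.05 against 11.4% of all genes. This was Cybb, which was higher in each BRICHOS-treated WT mouse, at 69.5, 83.2 and 85.1 CPM, than in each veh-treated WT mouse, at 63.1, 57.9 and 53.7 CPM. The difference was 0.45 on the log2 scale (SE 0.125, interval 0.17 to 0.72, edgeR adjusted p = 0.251). DESeq2's Wald test on these 6 libraries alone gave 0.44 with an adjusted p of 0.00718, and called 135 of all genes, but called 0 of the 6 genes when fitted to all 12 libraries. The sum of the border macrophage markers moved the same way, from 389 to 460 CPM in veh-treated to 516 to 630 CPM in BRICHOS-treated WT mice, with 0 of the 6 markers called. So did that of 5 mural cell markers, from 139 to 158 CPM to between 181 and 233 CPM, without overlap. That of 5 choroid plexus and ependyma markers went from 845 to 3840 CPM to between 3190 and 6650 CPM, with overlap. The sum of the 5 monocyte markers went from 18.1 to 48.6 CPM to between 32.5 and 86.6 CPM, also with overlap. That of the 7 microglial markers was lower without overlap, at 25430 to 28000 CPM under veh and 24150 to 25360 CPM under BRICHOS. Their part in the Cybb difference was not tested.

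The other genes differed little with treatment in WT mice. Ncf4 was the second gene without overlap, lower by a log2 fold change of -0.14 (interval -0.30 to 0.01, edgeR adjusted p = 0.474), where 17.5% of all genes did not overlap. The remaining values were 0.06 for Rac2, -0.01 for Cyba, -0.03 for Hvcn1 and -0.09 for Ncf1, each with overlapping mice. Tested directly, the treatment effect differed between the strains for 0 of the 6 genes, where 0.00648% of all genes were called, and 0 of the 6 had an unadjusted p under 0.05 or were called by DESeq2. For Cybb this difference, knock-in minus WT, was -0.28 (SE 0.175, interval -0.66 to 0.11, edgeR adjusted p = 0.493), and for the other 5 genes it was between 0.10 and 0.15.

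Levels of different genes were compared per kb of merged exons. In veh-treated WT mice Cyba led with 199 ± 6.59 CPM per kb, followed by Ncf1 with 173 ± 3.76, Hvcn1 with 71.9 ± 3.75, Rac2 with 46.3 ± 2.39, Ncf4 with 36.8 ± 1.43 and Cybb with 10.0 ± 0.811 (SD, n = 3). No neighbours in this order overlapped, but the length of the longest transcript in place of the merged exons put Ncf4 (50.7 ± 1.97) before Rac2 (47.3 ± 2.44), with overlapping mice, and kept the places of the other 4 genes. The catalytic subunit was thus the lowest of the 6 on this scale, above 73.1% of 15411 genes, while Cyba was above 99.0%. In veh-treated knock-in mice the order was Cyba with 358 ± 10.2, Ncf1 with 182 ± 8.64, Hvcn1 with 114 ± 6.32, Rac2 with 41.0 ± 0.484, Ncf4 with 31.3 ± 1.64 and Cybb with 30.5 ± 3.58 CPM per kb. Here Ncf4 and Cybb overlapped and could not be ordered, and by the longest transcript Ncf4 (43.2 ± 2.27) and Rac2 (41.8 ± 0.494) overlapped, as did Rac2 and Cybb (37.2 ± 4.38). The same held in BRICHOS-treated knock-in mice, at 30.8 ± 2.49 for Ncf4 and 34.3 ± 5.49 for Cybb.

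**Figure D3:**
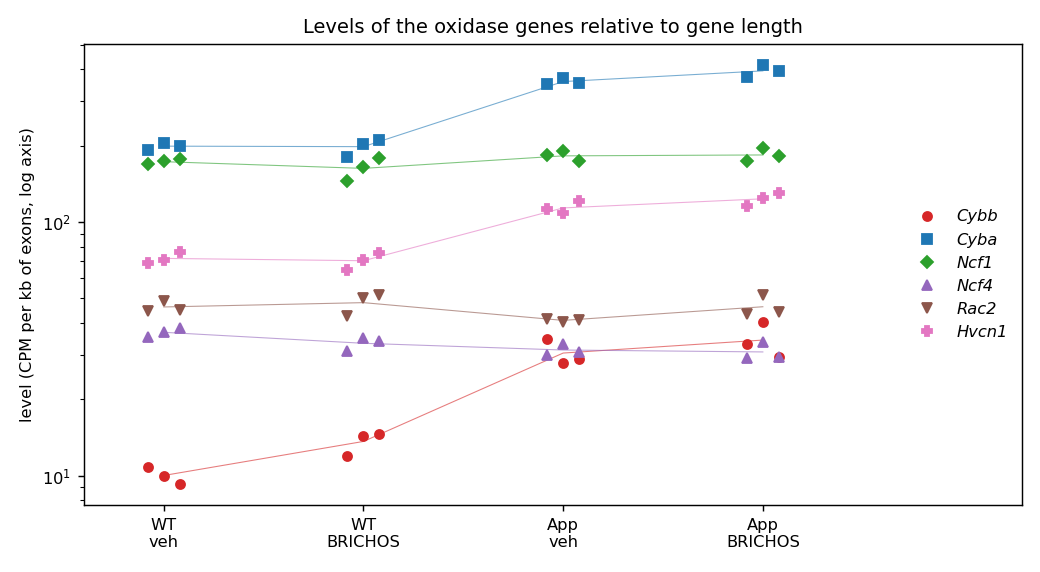
Level of each oxidase gene divided by the length of its exons (CPM per kb, log axis) with 1 point per mouse and a thin line through the means of the 4 groups. Cyba was highest in all groups, and Cybb moved from the lowest level of the 6, a mean of 10.0 in veh-treated WT mice, to that of Ncf4 in knock-in mice.

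As shares of the sum of these 6 levels per kb, Cyba took 37.1 ± 0.497% in veh-treated WT and 47.3 ± 0.671% in veh-treated knock-in mice, and Cybb 1.87 ± 0.198% and 4.03 ± 0.504%. The share of Hvcn1 was 13.4 ± 0.507% and 15.0 ± 1.04%. The shares of the cytosolic genes were lower, Ncf1 from 32.2 ± 0.352% to 24.1 ± 0.813%, Ncf4 from 6.84 ± 0.140% to 4.13 ± 0.159% and Rac2 from 8.61 ± 0.364% to 5.41 ± 0.141%. All 6 shares were without overlap between the strains, in veh-treated as in BRICHOS-treated mice. An exact two-sided permutation test of 3 against 3 mice gives p = 0.1 for each, the smallest it can give, and 0.133 after adjustment over 24 such tests. Some shares were also without overlap between BRICHOS and veh, with the same p-values. In knock-in mice these were Cyba (1.22 points), Ncf1 (-1.49) and Ncf4 (-0.354). In WT mice they were Cybb (0.720 points), Ncf1 (-1.31) and Ncf4 (-0.512). Shares of 1 sum depend on each other, and a gene that does not change loses share when others rise.

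BRICHOS-treated WT mouse 1 was the lowest of its group for all 6 genes and mouse 3 the highest for 5. Among BRICHOS-treated knock-in mice, mouse 1 was the lowest and mouse 2 the highest for 5 genes each, and among veh-treated WT mice, mouse 1 was the lowest for 5. In veh-treated knock-in mice no mouse stood out in this way, each being the lowest for 1 to 3 genes. BRICHOS-treated WT mouse 1 also had the highest oligodendrocyte marker sum of its group, at 14780 CPM against 6398 and 3989 CPM, and the part of this in its levels was not tested. Across the 12 libraries, the pair with the most alike patterns was Cyba and Hvcn1, whose log2 CPM, centred on each gene's mean, differed by a root mean square of 0.111. Ncf4 and Rac2 followed with 0.120. By the same measure over all tested genes, those nearest to Cybb were Tmem154 (0.0985), Tmem205 (0.156) and Ifi204 (0.167), and those nearest to Cyba were Nucb1 (0.0411), Atp6v1c1 (0.0485) and Lrrc20 (0.0570). Nearest to Hvcn1 were C1qa (0.0445), a complement subunit, Fcgr2b (0.0476), an inhibitory Fc receptor, and Tec (0.0477), a kinase. Skap2 (0.0403), Tnfrsf1a (0.0414) and Stk19 (0.0443) were nearest to Ncf1, Prkcd (0.0546), Btbd1 (0.0584) and Chml (0.0585) to Ncf4, and Tbpl1 (0.0410), Aif1 (0.0559) and Ptp4a2 (0.0581) to Rac2. The measure describes likeness over 12 libraries in 4 groups and was not tested.

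Of the other NADPH oxidases and their partners, no catalytic subunit passed the filter on low counts. Nox3, Duox1, Noxa1 and Duoxa2 had 0 counts in all 12 libraries, and Nox1, Nox4 and Duox2 had at most 4 in any. The phagocyte oxidase gene Cybb, with at least 720 counts, was hence the single catalytic subunit of this family above the filter. Noxo1, an organizer related to p47phox, had 86 to 182 counts and was not called between veh-treated strains (-0.30, edgeR adjusted p = 0.120) but narrowly passed the threshold between BRICHOS-treated strains (-0.38, edgeR adjusted p = 0.0488), a call lost in 11 of the 12 fits without 1 library (-0.44 to -0.28, adjusted p up to 0.172; kept without BRICHOS-treated knock-in mouse 1) and with DESeq2's size factors (adjusted p = 0.0548). Since 2122 of its 3013 exon bases are shared with Tbl3 on the opposite strand and the strand setting is not known, its counts may belong in part to Tbl3. Duoxa1, a maturation factor of another oxidase, had 6 to 70 counts and fell by 1.62 on the log2 scale in veh-treated knock-in mice (edgeR adjusted p = 0.00322) and by 1.68 in BRICHOS-treated ones (edgeR adjusted p = 0.00243). Of these 2 tested genes 1 was thus called lower under veh and 2 under BRICHOS, where 16.9% and 21.8% of all genes were, and the counts became 2 and 2 with total counts alone, where 33.7% and 45.4% of all genes were lower.

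Genes of assembly and activation, 25 in number, mostly went the other way than the membrane pair. In veh-treated knock-in against WT mice 3 were higher, 14 lower and 8 not called, with a median of -0.26, where 20.1% of all genes were higher and 16.9% lower. With total counts alone 1 was higher and 17 lower, where 2004 of all 15425 genes were higher and 5198 (33.7%) lower. The largest called changes were those of Prkca, a protein kinase C, with a log2 fold change of -1.44 (edgeR adjusted p = 2.07e-06), the Rac exchange factors Tiam1 with -0.89 and Vav2 with -0.77, and the Rac-activated kinase Pak1 with -0.57. The sums of oligodendrocyte and neuronal markers, given above, were lower in the same comparison, and that of astrocyte markers was higher. The part of these other cells in the changes of this list was not tested. Arhgdia, which holds Rac in the cytosol, was higher by 0.28 (edgeR adjusted p = 0.00268), but by 0.09 with total counts alone, where it was not called. Cybc1, a chaperone that gp91phox needs to mature, was lower by a log2 fold change of -0.33 (edgeR adjusted p = 0.00425) between veh-treated strains, and had a log2 fold change of 0.01 (edgeR adjusted p = 0.948) between BRICHOS-treated strains, which turned to -0.26 and was called with total counts alone (adjusted p = 0.00751). Nrros, which limits the amount of gp91phox, was higher by 0.27 (edgeR adjusted p = 0.0331), a call lost without each of 5 of the 6 compared libraries in turn and with total counts alone (0.08, adjusted p = 0.424), and Rap1a, a GTPase found with the membrane pair, differed by -0.21 (edgeR adjusted p = 0.0479), a call lost without each of 9 of the 12 libraries in turn and with DESeq2's size factors. In the BRICHOS-treated strains 6 of the 25 were higher and 11 lower, where 42.5% of all genes were called and 20.8% were higher, and with total counts alone 2 were higher and 16 lower, where 10.3% of all genes were higher and 45.4% lower.

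Genes that supply NADPH, mostly of the pentose phosphate pathway, were called higher in knock-in mice in 6 of 9 cases under veh, with a median of 0.34, and in 6 of 9 under BRICHOS, with a median of 0.30, where 20.1% and 20.8% of all genes were called higher. In both comparisons 0 of the 9 were lower, but the genes differed in part, since Me1 was called under veh only and Rpia under BRICHOS only (0.46, edgeR adjusted p = 0.00819; 0.18 and not called with total counts alone). Pgls had a log2 fold change of 0.49, Tkt of 0.47 and Pgd of 0.43 between veh-treated strains (edgeR adjusted p = 0.000658, 3.23e-05 and 0.000288). Me1, malic enzyme, had 15.9 ± 5.21 CPM in veh-treated knock-in and 7.34 ± 0.548 CPM in veh-treated WT mice (SD, n = 3), a difference of 1.12 (edgeR adjusted p = 0.0119) that missed the threshold without veh-treated knock-in mouse 1 (0.88, adjusted p = 0.0517). In BRICHOS-treated mice Me1 had 7.26 ± 3.01 CPM in knock-in and 8.99 ± 1.04 CPM in WT mice (-0.31, edgeR adjusted p = 0.432), and its treatment difference in knock-in mice was -1.14 (edgeR adjusted p = 0.291). The astrocyte marker sum was 919 to 2590 CPM in veh-treated and 446 to 1150 CPM in BRICHOS-treated knock-in mice, and its part in the Me1 values was not tested. With total counts alone 4 of the 9 were higher and 1 was lower between veh-treated strains, where 2004 of all 15425 genes were higher and 5198 (33.7%) lower, and 3 were higher and 1 was lower between BRICHOS-treated strains, where 10.3% and 45.4% of all genes were.

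Of 12 genes that handle superoxide and peroxide, 5 were higher and 1 was lower in veh-treated knock-in mice, where 20.1% of all genes were higher and 16.9% lower. They included Srxn1, which repairs peroxiredoxins, with 1.19, the thioredoxin reductase Txnrd1 with 0.90, the mitochondrial superoxide dismutase Sod2 with 0.62 and thioredoxin, Txn1, with 0.58 (edgeR adjusted p = 0.00756, 0.00949, 0.00899 and 0.000221). Srxn1, Txnrd1 and Sod2 had 1.41, 1.11 and 0.71 without veh-treated knock-in mouse 3, and 0.92, 0.64 and 0.51 without mouse 2. These were the highest and lowest values without any 1 library, so those without mouse 1 lay between them. The astrocyte marker sum was 919 CPM in mouse 3, against 2590 and 2364 CPM in mice 1 and 2. Its part in these values was not tested. Gclc, of glutathione synthesis, was the gene that fell, by 0.38 on the log2 scale (edgeR adjusted p = 0.00164). Under BRICHOS 4 were higher and 4 lower, where 42.5% of all genes were called, 20.8% higher and 21.8% lower. With total counts alone 4 were higher and 2 lower under veh, where 13% of all genes were higher and 33.7% lower. Under BRICHOS that scaling gave 3 higher and 5 lower, where 10.3% and 45.4% of all genes were.

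Among transcription factors known for phagocyte oxidase genes, Irf1 had a log2 fold change of 1.24 and Irf8 of 0.50 between veh-treated strains (edgeR adjusted p = 0.000478 and 0.000183). Elf1 was lower by a log2 fold change of -0.21 (edgeR adjusted p = 0.00465). Spi1, which encodes PU.1, was not called, at -0.18 (edgeR adjusted p = 0.109), but was called with total counts alone (-0.37, adjusted p = 0.000941) and without BRICHOS-treated knock-in mouse 2 (adjusted p = 0.0421). Between BRICHOS-treated strains Irf1 differed by 1.23 and Irf8 by 0.62 (edgeR adjusted p = 0.000442 and 3.27e-05). In each strain, 0 genes of these 5 lists were called between BRICHOS- and veh-treated mice in edgeR's fit, where the numbers with an unadjusted p under 0.05 were between 0 and 4 of a list. Over all genes 0.00648% were called and 10.8% had such a p in knock-in mice, and 0.00% and 11.4% in WT mice.

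**Figure D4:**
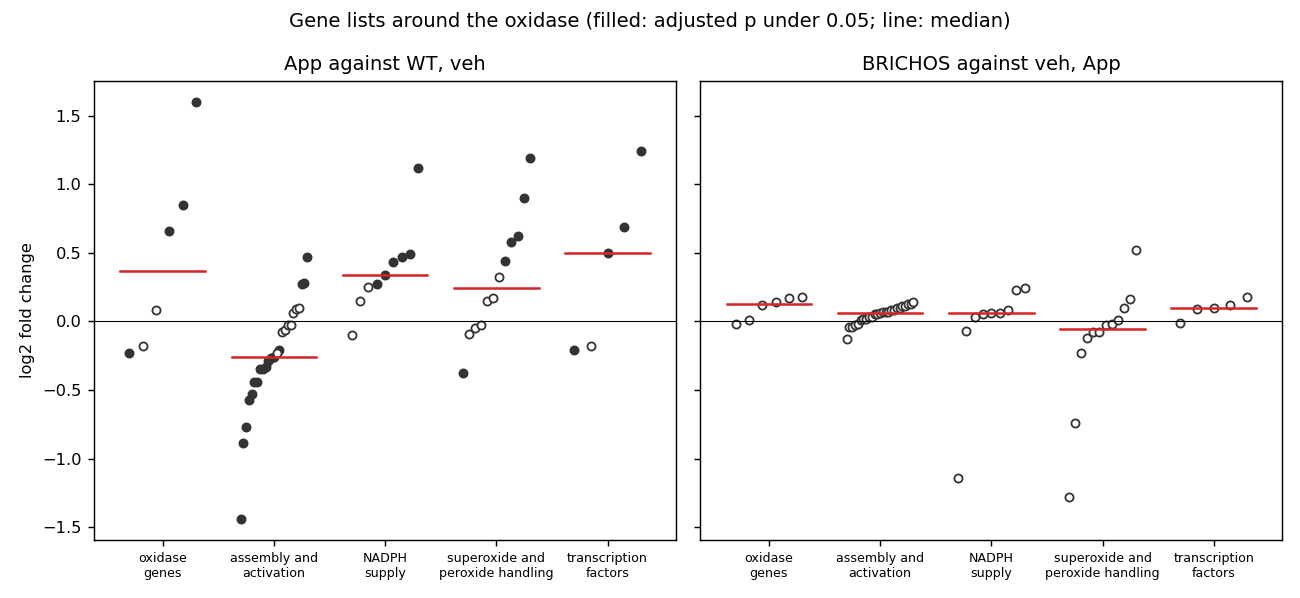
Log2 fold changes of the oxidase genes and of 4 lists around them, 1 point per gene sorted by value within a list, between veh-treated knock-in and WT mice (left) and between BRICHOS- and veh-treated knock-in mice (right); filled points have an edgeR adjusted p under 0.05 and red lines are medians. On the left the medians are 0.37 for the oxidase genes and -0.26 for assembly and activation, and on the right no point is filled.

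**Figure D5:**
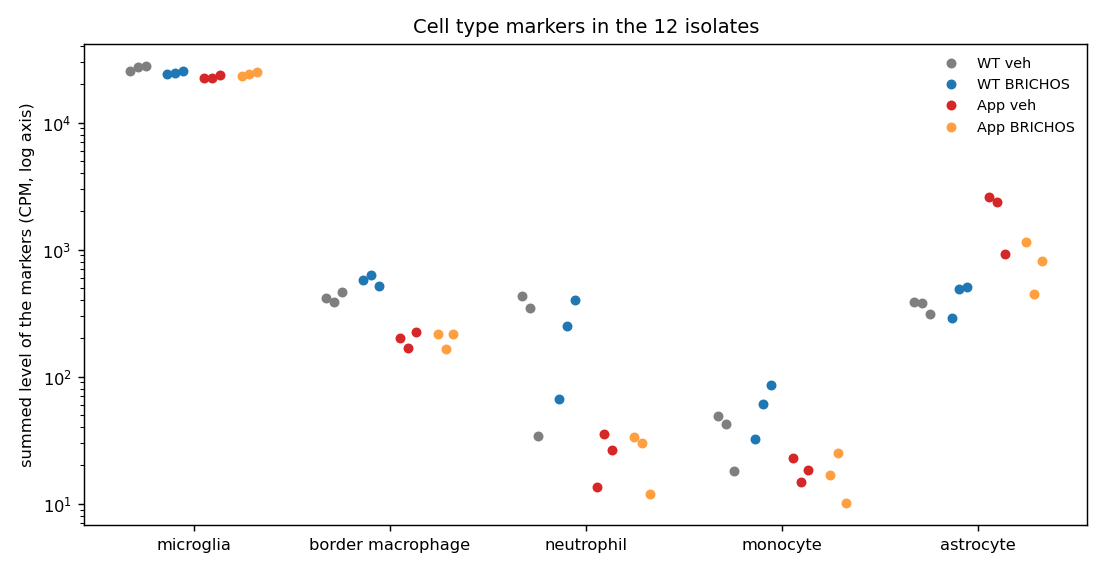
Summed level (CPM, log axis) of the markers of 5 cell types in each of the 12 isolates, coloured by group. Border macrophage markers were 389 to 630 CPM in WT and 165 to 224 CPM in knock-in mice, and microglial markers 22300 to 28000 CPM throughout.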

How the data were processed

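CD11b-positive cortical cells of 12 mice were sequenced with a stranded mRNA kit. Per the labels' processing notes and the study's methods, the authors trimmed the reads, checked them with FastQC 0.11.8, used STAR for alignment to GRCm38, obtained gene counts from featureCounts 1.5.1 and deposited these raw counts. The strand setting and the handling of reads shared between genes are not given in the sources used here. Symbols, positions and merged exon lengths came from GENCODE, which matched 55141 of 55487 genes, and promoter windows from RefSeq (GRCm38.p6).

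Samples were grouped by strain and treatment as the labels give them. Counts were analysed in R 4.3.3 with edgeR 4.0.16, using filterByExpr with a minimum count of 10, which kept 15425 genes, TMM factors of 0.8744 to 1.104, and a quasi-likelihood fit of 4 group means with glmQLFTest and Benjamini-Hochberg adjustment over all genes kept. SE is the log2 fold change divided by the root of F. Log2 CPM used a prior count of 2. Figures were drawn with Python 3.11.15 and matplotlib 3.10.9. The tests were checked on simulated counts. DESeq2 1.42.0, other scalings, filters and thresholds, the replicate number as a block and the omission of each library were tried as alternatives.

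The 6 genes and all lists were chosen with earlier results of these data known. All 6 genes are described. From each other list at most 4 genes were named, those called between veh-treated strains with the largest absolute change, besides a few regulators named for their role (Cybc1, Rac1, Rap1a and Nrros), and for each of the 6 genes its 3 nearest neighbours in pattern were given. Arhgdia, Gclc, Elf1, Spi1, Noxo1 and Duoxa1 were added after their values were seen, and genes that the rule also takes are not reported here. Sums were also computed for markers of B cells (352 to 470 CPM), T and NK cells (0.516 to 4.64), oligodendrocytes (2910 to 16500), neurons (4.08 to 23.2), endothelial cells (332 to 586) and mural cells (54.8 to 233).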

Additional observations from a re-analysis of the deposited data

How the results depend on the processing

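The calls of Cybb, Cyba and Hvcn1 in both strain comparisons, all of them higher in App NL-G-F knock-in mice, were kept under every scaling, filter, test and omission of a library, the exceptions being those of Cyba and Hvcn1 under an added cutoff of 1 on the absolute log2 fold change, which leaves 1 of the 6 genes, Cybb, in each comparison and 1601 and 2454 of all genes instead of 5710 and 6560. With total counts alone as the scaling, 5 of the 6 genes were called in each strain comparison, where 46.7% (veh) and 55.7% (BRICHOS) of all genes were, and the share of called genes that were higher went from 54.3% to 27.8% (veh) and from 48.8% to 18.5% (BRICHOS). That scaling also turned Ncf1 to -0.11, -0.10 and -0.04 (strain under veh, strain under BRICHOS, and treatment in knock-in mice), Rac1 to -0.09 and -0.06 between veh-treated and BRICHOS-treated strains, Cybc1 to -0.26 between BRICHOS-treated strains (-0.03 to 0.06 without 1 library), and in treated WT mice Cyba to 0.02 and Hvcn1 to 0.00. At least 10 counts in every library gave 0.01 for Cyba in the latter. Without 1 library, 3 to 4 of the 6 genes were called in each strain comparison and 0 in the others, with 4449 to 5981 (veh) and 5461 to 6693 (BRICHOS) of all genes.

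Counts of all genes called for treatment depended strongly on the test. In knock-in mice the 1 gene became 0 with total counts alone, with the cutoff on fold change and with only the compared groups in edgeR, 25 without a filter, 125 and 71 with DESeq2 on all and on the compared libraries, 1673 without adjustment and 0 to 162 without 1 library. In WT mice the 0 became 1, 12, 85, 135 and 1755 for total counts, no filter, both DESeq2 fits and no adjustment, and 0 to 5 without 1 library. For the difference of both effects the 1 became 107 without a filter, 240 with DESeq2, 2279 without adjustment and 0 to 88 without 1 library. Of the 6 genes, 1 was called without adjustment in each strain, and 1, Cybb, in WT mice with DESeq2 on the compared libraries. The cause of these shifts was not tested. Changes near 0 turned without 1 library, Cyba (-0.06 to 0.05) and Hvcn1 (-0.08 to 0.02) in treated WT mice, and Ncf1 (-0.03 to 0.05) and Ncf4 (-0.09 to 0.02) in treated knock-in mice. Without 1 library, the counts of called genes in the other lists moved by at most 2 in each direction, a repeat that was chosen after seeing the data, as were the other scalings of these lists, the scalings and omissions for their named genes and the levels by the longest transcript.

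The replicate numbers, which the labels give to different mice, were checked for pairing. In no comparison did all 3 same-numbered pairs correlate over 0.1 in their deviations from the group means (lowest -0.0148, highest 0.227). In the strain comparison under veh and for treatment in WT mice, 5 of 6 libraries correlated best with their own number (mean of same-numbered pairs 0.124 and 0.143). In the others it was 3 of 6. What unpaired libraries would give was not tested, so pairing by number was not decided. With the replicate number as a block, 5991 and 6822 of all genes were called in the strain comparisons, 0 for treatment in knock-in mice, and the same number of the 6 genes as without it. Each of the 6 genes had 720 or more counts in every library, and each group had 3 mice. Counting error was not compared with the spread between mice for these genes.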
